A study of Mus musculus with 10 samples.

Results

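Translation initiation factors and elongation factors were followed in ribosome-bound RNA and in total RNA of the mouse cerebral cortex. The set was chosen by gene symbol: every gene whose symbol begins with Eif or Eef and a digit, pseudogene symbols aside, with at least 10 counts in at least 3 of the 10 libraries. Such a symbol was carried by 64 of the 32531 genes counted, and 62 passed the minimum. They comprised 51 initiation factors with their kinases and binding proteins, 9 elongation genes, and the 2 eIF5A genes. The eIF5A genes carry an initiation name although the protein acts in elongation. The 9 elongation genes, called elongation factors below, include the kinase Eef2k, the methyltransferase Eef2kmt and Eef1e1 of the aminoacyl-tRNA synthetase complex. The remaining pair stayed below the minimum: Eif4e1b, a germ-line relative of the cap-binding protein, had at most 1 count in a library, and Eif4ebp3 had 0 counts in 9 libraries and 6 in the cocaine IP library numbered 3.

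All libraries came from adult mice of the S100a10-TRAP line ES691, in which a transgene under S100a10 control tags the ribosomal protein Rpl10a with EGFP. Tagged polysomes were immunopurified (IP) with antibodies to EGFP. An IP library is therefore meant to hold RNA on ribosomes of the cells that express the transgene. The IP groups were saline self-administration, cocaine self-administration (intravenous, short access) and yoked control, with 3 libraries each. A single library of total RNA from the saline group, the input, was the comparator for purification. Every animal carried the transgene, so carry-over of RNA from untagged cells was not measured. Neither the treatment of the yoked animals nor the number of animals per library is stated, and separate animals are not named for separate libraries. The p-values therefore measure the spread between these libraries, which may be technical. Library names place each IP group on a sequencing lane of its own and the input on another, so that a lane effect and a group effect cannot be told apart.

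Initiation begins when eIF2 brings the initiator tRNA to the small ribosomal subunit, on which eIF3 is the scaffold and eIF1, eIF1A and eIF5 govern recognition of the start codon. The eIF4F complex, made of the cap-binding eIF4E, the scaffold eIF4G and the helicase eIF4A, recruits the mRNA, and the 4E-BP proteins block it by holding eIF4E. A family of kinases phosphorylates the alpha subunit of eIF2 under stress, which inhibits its exchange factor eIF2B and lowers general initiation. During elongation eEF1A delivers aminoacyl-tRNA, eEF1B recharges eEF1A with GTP, and eEF2 moves the ribosome along the mRNA until eEF2 kinase stops it. In the brain, control of eIF2, of 4E-BP and of eEF2 is known for its part in synaptic plasticity and memory.

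Gene counts ranged from 38653752 to 50898401 over the 9 IP libraries, and the input had 69974908. Factor mRNAs accounted for 0.726 to 0.873% of gene counts after IP and 0.722% before it. S100a10, whose regulatory sequences drive the tag, stood at 249, 282 and 173 CPM (counts per 1000000, on library sizes scaled by the trimmed mean of M values, TMM) in the saline IP libraries against 35.3 in the input. Although the labels name neurons as the cell type, the 8 neuronal markers had a median log2 fold change of 0.03 between saline IP and input, and none passed the test. By contrast 8 of 8 meningeal fibroblast markers, 4 of 6 mural cell markers and 3 of 6 endothelial markers were called higher in saline IP, and 3 of 6 oligodendrocyte markers lower. Of 6 astrocyte markers 2 were called higher and 2 lower, and of 6 microglia markers 1 higher and 2 lower. Summed fibroblast markers came to 1039 to 1350 CPM in saline IP and 47.8 in the input, and summed neuronal markers to 22711 to 26030 and 22946.

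Levels were compared between genes per length, as CPM divided by merged exon length in kilobases (RPKM, from annotated gene models). In saline IP the highest value was that of Eif1b, a close relative of the start-codon scanning factor Eif1, with 167 ± 23.1 RPKM (SD, n = 3). Next came Eef1a1 with 137 ± 32.4, Eef2 with 134 ± 3.22 and Eif4g2, a scaffold that lacks the eIF4E site and serves cap-independent initiation, with 133 ± 8.10 (SD, n = 3). Neighbours in this order overlapped in range, since Eif1b spanned 141 to 183 RPKM and Eef1a1 100 to 162, and Eef2 and Eif4g2 lay within the range of Eef1a1. Eif1b exceeded Eef2 (132 to 138 RPKM) in all 3 libraries. Eif4a2, the helicase form prominent in brain, followed at 101 ± 21.4 RPKM, then Eif5a at 96.1 (range 87.4 to 110), Eif1 at 89.7 ± 14.7 and Eef1a2, the neuronal and muscle form of eEF1A, at 84.8 ± 14.7 (SD, n = 3). At the low end were the stress kinases Eif2ak3 (PERK) and Eif2ak4 (GCN2) with 1.62 and 1.40 RPKM and the eIF3 subunit genes Eif3j1 and Eif3j2 with 0.849 and 0.293. Eif1 and Eif1b, Eef1a1 and its many processed copies, and Eif3j1 and Eif3j2 are close in sequence, so reads that fit several copies may be missing from these values. The order also depends on the annotation, because merged exon length covers the exons of all annotated transcripts of a gene. It was 1125 bases for Eif1b and 5338 for Eif4a2, whose mean levels in saline IP were 188 and 540 CPM.

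**Figure D1:**
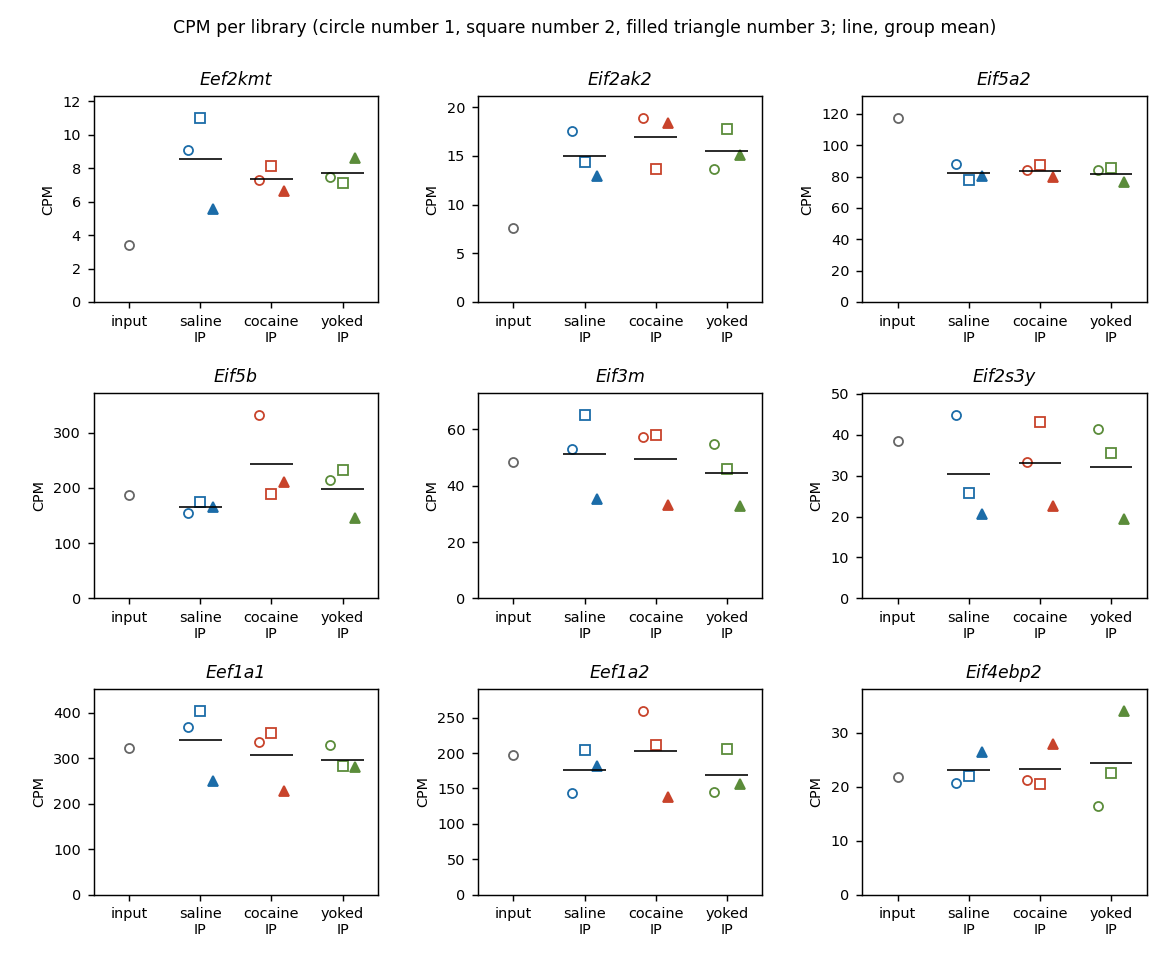
Level in each library (CPM, vertical axis from 0) of 9 factors; columns are the input and the 3 IP groups, the marker shape gives the library number and the line the group mean. Eef2kmt and Eif2ak2 lie above the input in all 9 IP libraries and Eif5a2 below it, while Eif3m and Eif2s3y are lowest in the library numbered 3 of each group.

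Setting saline IP against input asked which factor mRNAs are more or less abundant on the tagged ribosomes than in the whole cortex. Called higher were 2 genes, and 0 were lower: Eef2kmt, which encodes a lysine methyltransferase of eEF2, and Eif2ak2, which encodes PKR, the eIF2 alpha kinase activated by double-stranded RNA. A call means an adjusted p under 0.05 in edgeR's quasi-likelihood test, with adjustment by Benjamini and Hochberg over all 18437 genes tested. That share, 2 of 62 factors or 3.23%, lay below the 11.3% of all genes called (7.07% higher, 4.26% lower). The median log2 fold change was 0.11 for initiation factors and 0.08 for elongation factors, beside 0.02 for all genes. The elongation median had no steady sign: it was -0.06 with each library's trend on gene length removed, -0.04 with all 9 IP libraries, -0.05 without saline library 2 and 0.25 without saline library 3. Of the 62 factors, 24 had all 3 saline IP libraries above the input and 7 had all 3 below it. With a single input library such an arrangement is frequent, at 31.6% of all genes above and 33% below. The share of factors was somewhat over the first of these and well under the second. In such bulk material a change in the share of a cell type and a change in RNA per cell cannot be told apart.

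Eef2kmt lies on chromosome 16, bases 5244152 to 5255983 of mm10 (minus strand). Its level was 9.09, 11.0 and 5.58 CPM in the saline IP libraries and 3.38 in the input. Each saline IP library was therefore above the input, the library numbered 3 by the least. The log2 fold change was 1.34 ± 0.37 (SE; adjusted p = 0.0336, edgeR). The other IP groups lent this fit their spread but were not part of the contrast. In them Eef2kmt ranged from 6.62 to 8.62 CPM, above the same single input in all 6 libraries. Its annotated exons share 472 bases, 17.6% of their length, with exons of Alg1 on the opposite strand, and whether counting used the strand is not given in the sources used here. Alg1 itself stood at 1.83, 3.19 and 3.47 CPM in saline IP and 3.17 in the input, a log2 fold change of -0.16 ± 0.47 (SE; adjusted p = 0.880, edgeR).

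Eif2ak2 lies on chromosome 17, bases 78852564 to 78882573 of mm10 (minus strand). It is known as a gene that interferon induces, through an element of the interferon-stimulated response type. The stretch holding a match to such an element in the annotated start region is shown because Eif2ak2 was the sole kinase called. It covers chr17:78882535-78882564 on the minus strand (RefSeq, GRCm38.p6), bases 9 to 38 after the annotated start, written 5′ to 3′ with the match at bases 19 to 28 in capitals.
Eif2ak2: agtccgccggGAAAACGAAAcagaagagaa
The letters searched were GAAA, any 2 bases and GAAA again, on both strands, in windows from 250 bases before to 50 bases after each annotated start. They occurred in 3.44% of 32851 such windows and in 4 of the 50 factors with a window (Eif2ak2, Eif2s1, Eif2s3x and Eif3a). Of the called pair Eif2ak2 had the letters and Eef2kmt did not. A match describes the letters and is not evidence of binding.

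Eif2ak2 stood at 17.6, 14.4 and 12.9 CPM in the saline IP libraries and 7.60 in the input. All 3 lay above the input, as did the 6 other IP libraries at 13.6 to 18.9 CPM. Its log2 fold change between saline IP and input was 0.98 ± 0.29 (SE; adjusted p = 0.0471, edgeR). The other eIF2 alpha kinases did not pass: Eif2ak3 (PERK, which senses misfolded protein in the endoplasmic reticulum) had 0.47 ± 0.32 (SE; adjusted p = 0.407, edgeR), Eif2ak1 (the heme-regulated kinase) 0.18 ± 0.20 and Eif2ak4 (GCN2, which senses uncharged tRNA) -0.03 ± 0.28. Both calls stood near the threshold and rested on few libraries. Neither held when saline IP library 1 or library 2 was left out (Eef2kmt 0.0722 and 0.0749, Eif2ak2 0.108 and 0.0703, adjusted p, edgeR). Both calls were also lost in a fit of the saline IP and input libraries alone. Fibroblast, mural and endothelial markers were also called higher in the same IP libraries against the input. Their part in the result was not tested. Those markers, summed, were also higher in the IP libraries numbered 3 than in the other IP libraries. In that comparison Eef2kmt had -0.26 ± 0.20 and Eif2ak2 -0.06 ± 0.16 (log2 fold change, SE), neither called. It was not tested whether either gene follows the markers.

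The other initiation factors showed the following between saline IP and input, none passing the test. In the group for start codon selection and subunit joining, 5 of 7 genes were above 0 (51.5% of all genes were), from Eif1ax at 0.53 ± 0.33 to Eif5, the GTPase-activating protein of eIF2, at -0.23 ± 0.31 (log2 fold change, SE). Eif1 and Eif1b had 0.35 ± 0.23 and 0.34 ± 0.28. The eIF2 subunits and helpers had 2 of 6 above 0, from Eif2d at 0.30 ± 0.25 to Eif2s3y, the Y-linked copy of the gamma subunit, at -0.34 ± 0.45. Eif2s1, the alpha subunit that the kinases phosphorylate, had -0.08 ± 0.31, and Eif2s3x, the X-linked gamma copy, -0.01 ± 0.39.

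Within eIF2B, 4 of 5 subunits were above 0. Eif2b1, its alpha subunit, came closest to a call, at 36.7, 43.9 and 41.8 CPM in saline IP and 25.7 in the input. All 3 libraries exceeded the input, with a log2 fold change of 0.67 ± 0.22 (SE; adjusted p = 0.0673, edgeR); with all 9 IP libraries set against the input it was called (log2 fold change 0.70, adjusted p = 0.0370, edgeR). Eif2b3 was lowest of the complex at -0.13 ± 0.27. The 14 eIF3 genes divided evenly, 7 above and 7 below 0, from Eif3l at 0.41 ± 0.23 to Eif3b, a core subunit, at -0.29 ± 0.21 (log2 fold change, SE).

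Among the 11 eIF4F, eIF4B and eIF4H genes 8 were above 0. Eif4g2 had the highest value of them, at 1439, 1280 and 1323 CPM in saline IP against 1017 in the input, a log2 fold change of 0.41 ± 0.17 (SE; adjusted p = 0.144, edgeR). Eif4b, a cofactor of the helicase, had the lowest at -0.26 ± 0.17. The helicases Eif4a1, Eif4a2 and Eif4a3 (the last a part of the exon junction complex) had 0.05 ± 0.29, -0.19 ± 0.30 and 0.22 ± 0.26, the cap-binding Eif4e 0.12 ± 0.26 and the scaffold Eif4g1 0.16 ± 0.23. The 4E-BP genes Eif4ebp1 and Eif4ebp2 had 0.48 ± 0.37 and 0.08 ± 0.34, and Eif6, which keeps the large ribosomal subunit from joining early, had 0.21 ± 0.23 (log2 fold change, SE).

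The eIF5A pair differed in sign. Eif5a2, the less common form, stood at 88.1, 77.9 and 80.5 CPM in saline IP and 117 in the input. It was below the input in all 3 libraries, and in the 6 other IP libraries at 76.3 to 87.1 CPM. Its log2 fold change of -0.51 ± 0.18 (SE; adjusted p = 0.0943, edgeR) was the lowest of the 62 factors and missed the threshold. DESeq2 called it (adjusted p = 0.0414, DESeq2). Eif5a had 0.23 ± 0.22 (log2 fold change, SE).

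Elongation factors other than Eef2kmt did not pass. Eef1a1 had a log2 fold change of 0.08 ± 0.29, Eef1a2 -0.16 ± 0.31, Eef2 -0.03 ± 0.20 and Eef2k, the kinase that inactivates eEF2, -0.17 ± 0.30 (SE). Eef2 was the steadiest of them at 459, 441 and 439 CPM in saline IP and 457 in the input. In the exchange complex the values ran from Eef1d, the delta subunit, at 0.57 ± 0.26 to Eef1g, the gamma subunit, at -0.23 ± 0.24. Eef1d was higher in each saline IP library (93.4, 87.9 and 64.7 CPM) than in the input (55.4), without passing the test (adjusted p = 0.186, edgeR).

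**Figure D2:**
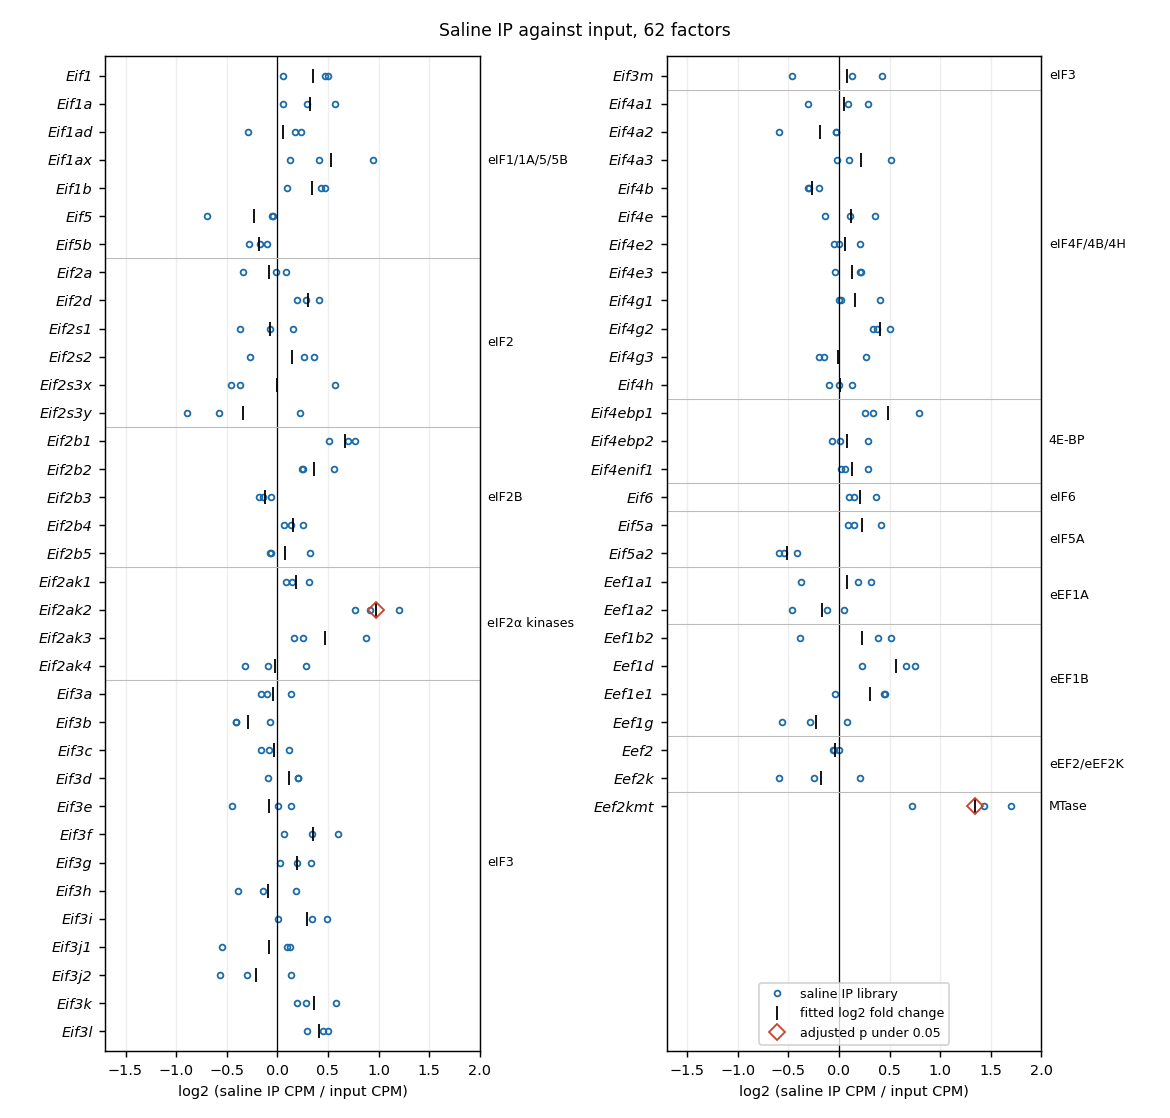
Difference of each saline IP library from the input (log2 ratio of CPM, horizontal axis) for the 62 factors, in rows grouped by role; circles are libraries, vertical ticks the fitted log2 fold change, diamonds the 2 genes called. Most rows scatter around 0, and Eef2kmt and Eif2ak2 are the called pair to the right.

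Beyond the symbol rule, 49 other translation genes gave 1 call, higher, or 2.04%, beside 11.3% of all genes (7.07% higher). This was Mif4gd, which encodes an eIF4G-like partner of the histone mRNA-binding protein, at 11.6, 10.4 and 9.27 CPM in saline IP against 4.21 in the input (log2 fold change 1.31 ± 0.28, SE; adjusted p = 0.00824, edgeR). None of the 7 termination and recycling genes, 4 selenocysteine and hypusine genes, 13 mTORC1 and cap kinase genes, 9 genes of the integrated stress response or 9 mitochondrial translation factors passed. Mknk2, a kinase of eIF4E, stood just outside the threshold at 0.74 ± 0.23 (SE; adjusted p = 0.0517, edgeR), and so did Pabpc1, the main cytoplasmic poly(A)-binding protein, at -0.61 ± 0.19 (SE; adjusted p = 0.0568, edgeR).

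Cocaine against saline self-administration asked whether ribosome-bound RNA differed with the drug, and the yoked group served as a further comparator. No factor was called in cocaine against saline IP, yoked against saline IP, cocaine against yoked IP or the joint test of the 3 groups (edgeR, 16642 genes tested, background 0% in each), and DESeq2 called none either. At an unadjusted p under 0.05 edgeR gave 1 factor in cocaine against saline and 0 in the other 3 tests, where all genes gave 3.18% for cocaine against saline, 2.39% for yoked against saline, 0.955% for cocaine against yoked and 1.61% in the joint test. The median standard error of a factor's log2 fold change was 0.18 in each pairwise comparison, with a range of 0.11 to 0.45 in cocaine against saline. The lowest adjusted p among the factors was 0.990 in cocaine against saline IP (edgeR). Cocaine and yoked IP share the saline libraries as their control, so their values are given side by side only.

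The single factor under that unadjusted limit was Eif5b, the GTPase that joins the ribosomal subunits. It stood at 154, 175 and 166 CPM in saline IP, 333, 189 and 211 in cocaine IP, and 214, 233 and 146 in yoked IP. All 3 cocaine libraries were above all 3 saline libraries, with cocaine library 1 far above every other library, while the yoked group overlapped both. The log2 fold change of cocaine against saline was 0.55 ± 0.22 (SE; unadjusted p = 0.0263, adjusted p = 0.990, edgeR), and that of yoked against saline 0.25 ± 0.22. Exons of Eif5b share 1643 bases, 16.8% of their length, with Rev1 on the opposite strand; Rev1 had a cocaine against saline value of -0.12 ± 0.16 (log2 fold change, SE).

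Eif5a was the other factor whose cocaine and saline libraries did not overlap. Its level was 217, 261 and 208 CPM in saline IP, 171, 207 and 192 in cocaine IP, and 217, 175 and 188 in yoked IP. Cocaine libraries were the lower, though the nearest pair all but touched, and the log2 fold change was -0.28 ± 0.15 (SE; adjusted p = 0.990, edgeR). Over all genes, 4.64% had every cocaine library above every saline library and 4.32% the reverse, and 1 of 62 factors each way lies below both shares. In yoked against saline IP the groups of Eif2b4, a subunit of eIF2B, did not overlap (background 3.03% higher, 3.05% lower), and in cocaine against yoked IP those of Eif4b (background 2.49% higher, 2.25% lower), with log2 fold changes of -0.15 ± 0.18 and -0.08 ± 0.12 (SE).

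By role, the initiation factors had a median log2 fold change of -0.04 in cocaine against saline, -0.04 in yoked against saline and 0.02 in cocaine against yoked, and the elongation factors -0.17, -0.07 and -0.05. Medians over all genes were -0.02, -0.01 and -0.01. Single libraries moved these values: in cocaine against saline the elongation median was -0.05 without saline library 2 and -0.34 without saline library 3, and the initiation median ran from -0.10 without cocaine library 2 to 0.08 without cocaine library 3. Of the 9 elongation factors 8 were below 0 in cocaine against saline, the exception being Eef1a2 at 0.19 ± 0.22 (SE), and 40 of all 62 factors were below 0 there, beside 53.1% of all genes. The values below 0 included all 3 genes of the exchange complex, from Eef1b2 at -0.33 ± 0.25 to Eef1d at -0.21 ± 0.18. Eef1e1, which despite its name encodes a part of the aminoacyl-tRNA synthetase complex, had -0.15 ± 0.24 (SE). None of these differences passed the test. No cell type marker was called in the same comparison, where 0 of all 16642 genes were. Of the meningeal fibroblast markers 7 of 8 were below 0 (median -0.24). Their summed level overlapped, at 860 to 1255 CPM in cocaine IP and 1039 to 1350 in saline IP. Of the oligodendrocyte markers 0 of 6 were below 0 (median 0.58), and their sum overlapped at 244 to 696 and 197 to 533 CPM. Of the 8 neuronal markers 1 was below 0 (median 0.20), and their sum did not overlap, at 26720 to 30529 CPM in cocaine IP and 22711 to 26030 in saline IP. Mural cell markers had 5 of 6 below 0 (median -0.14) and astrocyte markers 1 of 6 (median 0.32). Endothelial markers had 2 of 6 below 0 (median 0.03) and microglia markers 3 of 6 (median -0.02). The part of these cell types in the factor values was not tested.

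Among the initiation groups, start codon factors ran from Eif1ax at -0.43 ± 0.23 to Eif5b in cocaine against saline, and from -0.34 ± 0.23 to 0.25 ± 0.22 for the same genes in yoked against saline. In eIF2 the values of cocaine against saline ran from Eif2s3x at -0.20 ± 0.28 to Eif2s1 at 0.21 ± 0.22, in eIF2B from Eif2b5 at -0.13 ± 0.16 to Eif2b1 at 0.08 ± 0.15, and in eIF3 from Eif3f at -0.23 ± 0.17 to Eif3a at 0.22 ± 0.14. For the kinases they ran from Eif2ak3 at -0.14 ± 0.22 to Eif2ak4 at 0.27 ± 0.20, with Eif2ak2 at 0.17 ± 0.19. Cap-binding and unwinding genes ran from Eif4e2 at -0.20 ± 0.15 to Eif4g3 at 0.22 ± 0.17, with Eif4e at -0.10 ± 0.18 and Eif4g1 at 0.10 ± 0.16. Eif4ebp1 had 0.05 ± 0.25, Eif4ebp2 0.00 ± 0.24, Eif6 -0.20 ± 0.16, Eef2 -0.04 ± 0.14 and Eef2k -0.03 ± 0.22 (log2 fold change, SE). The 49 other translation genes also gave 0 calls in each pairwise comparison of IP groups (edgeR), with 0, 1 and 1 at an unadjusted p under 0.05.

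**Figure D3:**
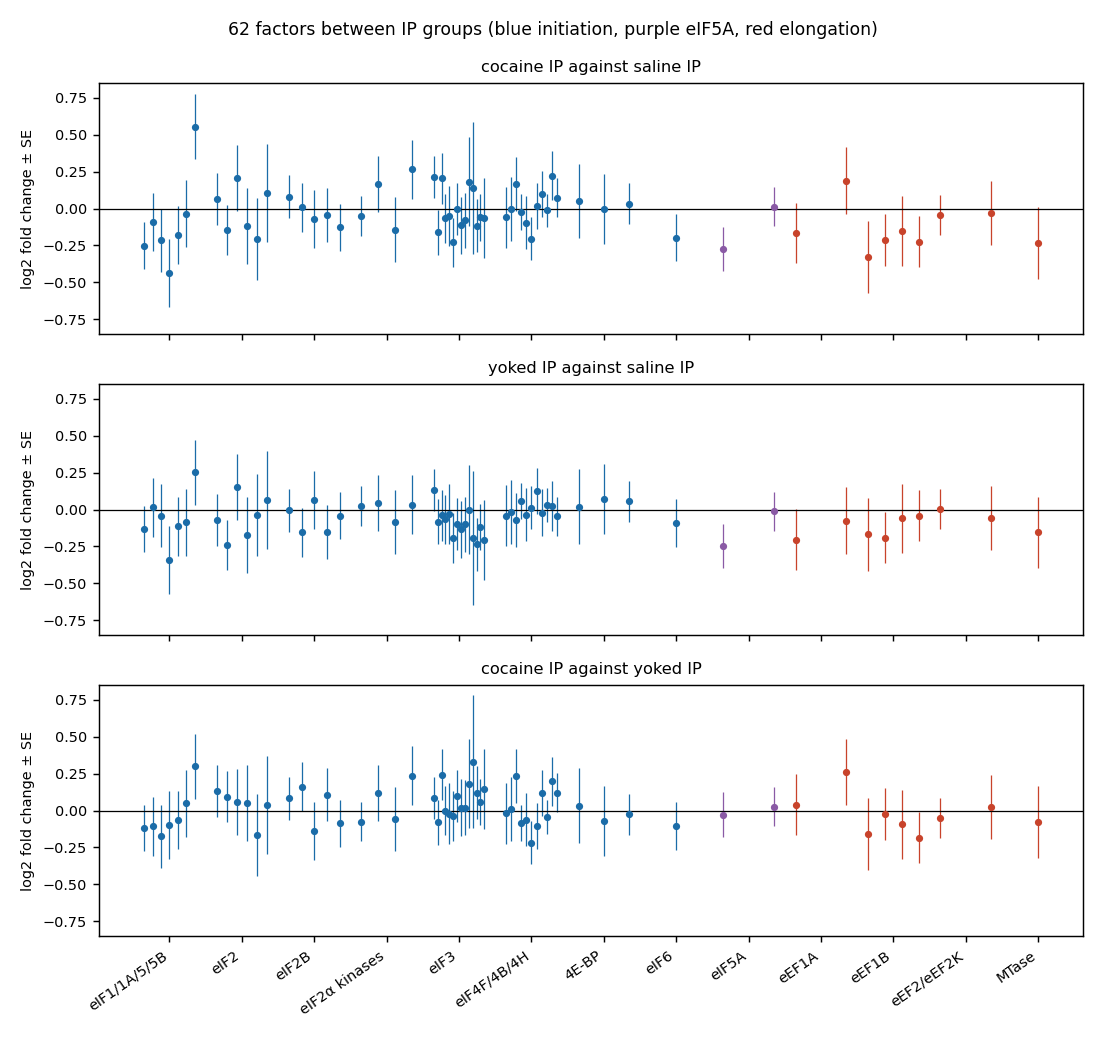
Log2 fold change (vertical axis, bars ± SE) of the 62 factors in the 3 pairwise comparisons of IP groups, by role along the horizontal axis. Points scatter around 0 in each panel, and Eif5b at 0.55 in cocaine against saline is the highest.

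Balance between paralogs was measured as a share of counts within a library, which needs no scaling between libraries. Eef1a2 made up 28.1, 33.6 and 42.2% of Eef1a1 and Eef1a2 counts in saline IP, 43.6, 37.3 and 37.9% in cocaine IP, 30.5, 42.1 and 35.8% in yoked IP, and 38.0% in the input (95% exact Clopper-Pearson interval 37.5 to 38.5, counting error only). The groups overlapped. Eif4a2 made up 84.9 to 86.6% of Eif4a1 and Eif4a2 counts in saline IP, 81.8 to 88.1% in cocaine IP, 84.6 to 87.5% in yoked IP and 87.5% in the input. Eif2s3y made up 76.4 to 79.1% of the X and Y copies of the eIF2 gamma subunit in saline IP, 73.4 to 86.0% in cocaine IP, 74.5 to 80.8% in yoked IP and 81.4% in the input. A total of 9 two-sided exact permutation tests of group pairs gave p = 0.4 to 0.9 (adjusted p = 0.9 for each), and 3 against 3 libraries cannot reach below 0.1.

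While no factor was called between groups, several were called between IP libraries of different number. Libraries numbered 1, 2 and 3 in each group also carry 3 different index sequences in their names, and the labels do not say what else the number marks. This comparison was chosen after the data had been seen. In the libraries numbered 3, the factors took 0.726, 0.731 and 0.734% of gene counts in the saline, cocaine and yoked groups, below the 0.812 to 0.873% of the 6 other IP libraries. Summed initiation factors came to 5902, 5880 and 5772 CPM in them, against 6379 to 6838 in the others, and summed elongation factors to 1152, 1072 and 1256 against 1275 to 1476. Both sums therefore separated the number 3 libraries from the rest of the IP libraries in all 3 groups. For elongation the yoked libraries 1, 2 and 3 lay close, at 1276, 1275 and 1256 CPM. The input, at 5926 and 1310 CPM, lay just above the number 3 libraries and below the 6 others for initiation, and within the range of the 6 others for elongation.

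With group in the model, edgeR called 17 of 62 factors between number 3 and numbers 1 and 2, of which 16 were lower and 1 higher, beside 15.6% of all genes called (9.38% higher and 6.25% lower). The share of factors called was 27.4%. Below 0 were 51 of the 62 factors, or 82.3%, where 51.2% of all genes were below 0. Another measure gave 16 factors lower in all 3 number 3 libraries than in each of the 6 others, 25.8% against 8.25% of all genes. Medians were -0.27 for initiation factors, -0.28 for elongation factors and -0.01 for all genes on the log2 scale. The count depended on single libraries: it was 7 without saline library 2, cocaine library 3 or yoked library 3 (7.91, 6.84 and 6.4% of all genes called), 8 without saline library 3 or cocaine library 2 (6.98 and 10.7%), and 25 without cocaine library 1 (20.8%). In these fits the share over all genes moved the same way as the count of factors. It did not without saline library 1 (15 factors, 16.6% of all genes) or yoked library 2 (19 factors, 12.8%).

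Of the step that brings initiator tRNA, Eif2s3y and Eif2s2 were among the 3 lowest of the 62 factors. Eif2s3y was at 45.0, 25.8 and 20.7 CPM in saline IP libraries 1, 2 and 3, at 33.4, 43.2 and 22.6 in cocaine IP and at 41.4, 35.6 and 19.4 in yoked IP. The number 3 library was lowest in each group, and the log2 fold change was -0.84 ± 0.16 (SE; adjusted p = 0.00356, edgeR). Eif2s2, the beta subunit of eIF2, was at 42.4, 36.9 and 33.9 CPM in the number 3 libraries and at 53.4 to 65.7 in the others, a log2 fold change of -0.70 ± 0.12 (SE; adjusted p = 0.00159, edgeR). Eif2s1 and Eif2a, an alternative carrier of initiator tRNA, had -0.52 ± 0.13 and -0.39 ± 0.10, so that 4 of the 6 genes of this group were called lower. Eif5, with 237, 270 and 216 CPM in number 3 and 338 to 376 in the others, had -0.59 ± 0.11 (SE; adjusted p = 0.00274, edgeR).

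In the group of start codon factors Eif1a, Eif1ax and Eif1b were also lower (-0.42, -0.47 and -0.41), which with Eif5 made 4 of 7. Of 14 eIF3 genes 4 were lower: Eif3m, Eif3e, Eif3h and Eif3k. Eif3m stood at 35.2, 33.1 and 32.9 CPM in number 3 and at 46.1 to 65.2 in the others, a log2 fold change of -0.73 ± 0.12 (SE; adjusted p = 0.00168, edgeR). Eif3a, the largest eIF3 subunit, was the exception in direction at 0.14 ± 0.11. Of the 11 cap-binding and unwinding genes Eif4a2 alone was called, at 408, 409 and 418 CPM in number 3 and 550 to 643 in the others (-0.56 ± 0.10, SE; adjusted p = 0.00269, edgeR). Among elongation factors Eef1a1, Eef1b2 and Eef1d were lower, at -0.46 ± 0.12, -0.51 ± 0.15 and -0.36 ± 0.11, and Eef2 was not called at 0.06 ± 0.11 (log2 fold change, SE).

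Among the regulators the direction was mixed. Eif4ebp2, which holds eIF4E, was the 1 gene called higher, with 26.5, 27.9 and 34.0 CPM in number 3 and 16.4 to 22.6 in the others (log2 fold change 0.51 ± 0.13, SE; adjusted p = 0.0186, edgeR). Of the eIF2 alpha kinases 3 of 4 were above 0 and 0 called, with Eif2ak3 highest at 0.38 ± 0.15 (SE; adjusted p = 0.112, edgeR). Its 3 number 3 libraries lay above all others, an arrangement found in 2 of 62 factors and 11.6% of all genes. None of the 5 eIF2B genes was called, and all 5 were below 0. Outside the symbol rule 6 of 49 translation genes were called lower and 0 higher, or 12.2%, beside 15.6% of all genes (6.25% lower). They were Mcts1 and Gspt2 (recycling and termination), Nck1 and Impact (integrated stress response), and Paip1 and Paip2 (partners of the poly(A)-binding protein).

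Longer genes tended to have the higher values in this comparison, with a Spearman rho between merged exon length and log2 fold change of 0.178 across the 62 factors and 0.199 across 15593 genes with a length. Both are descriptions over genes, which share libraries and are not independent replicates. After each library's trend on length was removed, 16 factors were called, beside 17.1% of all genes, and the part of the index sequence in the result was not tested. Summed markers of other cell types separated the same libraries: meningeal fibroblast markers came to 1255 to 1481 CPM in number 3 and 860 to 1199 in the other IP libraries, mural cell markers to 288 to 341 and 185 to 246, and endothelial markers to 52.0 to 55.7 and 27.5 to 36.5. Neuronal markers overlapped, at 21486 to 26720 and 22946 to 30529 CPM. So did astrocyte markers (1053 to 1165 and 747 to 1231), oligodendrocyte markers (176 to 244 and 197 to 696) and microglia markers (24.8 to 31.5 and 17.6 to 24.9). The part of these cell types in the lower factor values was not tested.

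**Figure D4:**
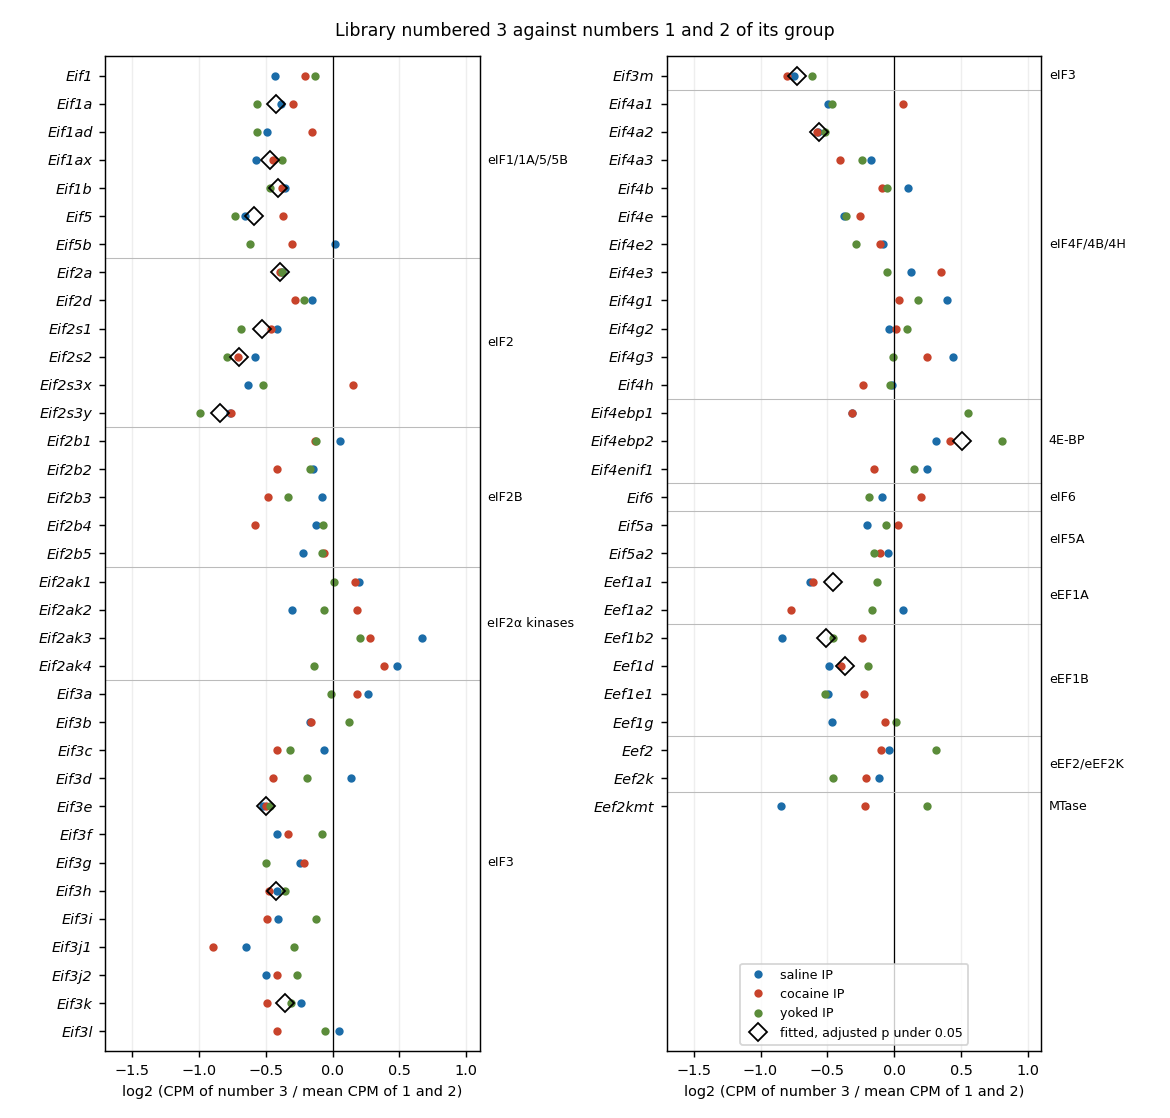
Difference of the library numbered 3 from the mean of numbers 1 and 2 of its own group (log2 ratio of CPM, horizontal axis) for the 62 factors, in rows by role; dot colour gives the group and open diamonds the fitted value of the 17 genes called. Most dots lie left of 0 in all 3 groups, and Eif4ebp2 and Eif2ak3 lie right of it.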

How the data were processed

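The data were 10 libraries of mouse cerebral cortex: 9 IP libraries in 3 groups of 3 and 1 input. The authors deposited raw read counts per gene, 1 table per library; STAR 2.0.0e, HTSeq and mm10 are named in the submitters' processing notes, and neither the annotation nor the strand setting is given in the sources used here. The 6 summary entries that name no gene held 47.4 to 54.5% of all entries, with 38.3 to 46.8% for reads placed at several sites, and were left out of library sizes. No pair of libraries within a group was a duplicate: the chi-square of their counts over its degrees of freedom was at least 32.8.

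Counts were tested with edgeR 4.0.16 in R 4.3.3 (quasi-likelihood test, TMM factors, filterByExpr with a minimum count of 10, Benjamini-Hochberg over all genes tested). The input comparison was fitted on all 10 libraries, so that the single input takes its spread from the IP groups; IP groups were compared in the 9 IP libraries. Adjusted p under 0.05 was a call. Standard errors (SE) were derived from the test, as the absolute log2 fold change divided by the square root of its F statistic. Scripts were tested on simulated data. Lengths, coordinates and exon overlaps came from GENCODE M21 (GRCm38, the same assembly as mm10), which matched all 62 symbols; 13 factors share exon bases with another protein-coding gene there.

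Named genes were those called, the highest and lowest of each role group, and a set of core factors. Eif5b, Eif5a, Eif2b4 and Eif4b were named among IP groups because their groups did not overlap. Members and gene lists were chosen with earlier results of these data known. Alternatives were other size factors, DESeq2 1.42.0, other count filters, removal of a length trend, other sample sets, a replicate block and leaving out each library.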

Additional observations from a re-analysis of the deposited data

How the results depend on the processing

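For saline IP against input, 2 factors were called as reported (11.3% of all genes), 4 with DESeq2 (15%; Eif2b1 and Eif5a2 joined), 1 with a filter of 10 counts in 3 libraries (11.9%), 3 with the length trend removed (11.2%), 3 with all 9 IP libraries (13.7%) and 0 with saline IP and input fitted alone (9.8%). Without 1 saline library the count ran from 0 to 2, and the share of all genes from 8 to 11.3%. With the length trend removed the median log2 fold change there moved from 0.11 to 0.059 for initiation factors and from 0.08 to -0.06 for elongation factors. Factor by factor, alternatives lost a call 7 times and gained one 4 times in that comparison, and 59 and 22 times for the libraries numbered 3. In the comparisons among IP groups 0 factors were called under every alternative run. Leaving out 1 library, the median of elongation factors ran from -0.34 to -0.05 in cocaine against saline IP, from -0.20 to 0.00058 in yoked against saline IP and from -0.10 to 0.05 in cocaine against yoked IP. That of initiation factors ran from -0.10 to 0.08, from -0.15 to 0.03 and from -0.03 to 0.12, changing sign in each. The difference of the Eef1a2 share between cocaine and saline IP ran from 1.71 to 8.75 percentage points.

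For libraries numbered 3 against 1 and 2, whose alternatives were all chosen after seeing the data, DESeq2 called 22 factors (21.7% of all genes), and leaving out 1 library gave 7 to 25 (6.4 to 20.8%), where 17 and 15.6% were reported. Medians then ran from -0.30 to -0.20 for initiation factors and from -0.37 to -0.26 for elongation factors, and with the length trend removed they were -0.23 and -0.33.

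As for pairing by library number, same-numbered libraries of different groups had correlations of deviations from -0.03 to 0.28, over 0.1 in 5 of 9 pairs. Pairs of libraries numbered 3 had 0.24 to 0.28, and 7 of 9 libraries correlated best with their own number. The labels do not say that the number marks shared animals, so the main fits used no pairing. Their spread therefore includes differences by number, and a replicate block was an alternative. With the replicate block 0 factors were called in each comparison of IP groups, as without it, and the initiation and elongation medians of cocaine against saline IP were -0.03 and -0.16. No paired analysis was possible for the input because it is 1 library.

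With 3 libraries a group the standard error of a factor's log2 fold change had a median of 0.18 in each comparison of IP groups.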
